A study of Homo sapiens with 33 samples.

Results

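OSR1, PAX2, PAX8, SALL1, SIX2, EYA1, LHX1, CITED1 and GDNF are regulators of the intermediate mesoderm and of the nephron progenitors that arise from it. They were taken as the rows of the gene table that carry these 9 symbols, out of 58735 genes, and they were followed over all 11 groups of a 14-day differentiation of human embryonic stem cells towards gonadal cells. RNA was sequenced from 33 libraries, 3 per group. Every group was made from H9, an established human embryonic stem cell line, as clone 24 of the line H9-DDdCas9VP192-FOXL2. All groups, controls included, therefore carried the same inducible activator, a catalytically dead Cas9 fused to the VP192 activation domain and to a destabilising domain, together with guide RNAs for the promoter of FOXL2, a forkhead transcription factor of the ovary. Doxycycline switches the activator on and trimethoprim stabilises it.

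The day 4 group was collected at the intermediate mesoderm stage, before induction. From day 4 the IND groups received doxycycline and trimethoprim and the CTRL groups did not, and both were collected on days 6, 8, 10, 12 and 14. No group received both agents without activating FOXL2, so an effect of the agents cannot be told apart from one of FOXL2. The 3 libraries of a group came from technical replicate wells of a single differentiation of 1 clone, so that every p-value below measures the spread between wells. FOXL2 itself, measured in CPM (counts scaled to library size with TMM factors), ranged from 149 to 570.4 CPM under induction and never exceeded 0.378 CPM without it, so that no library went against its label. Libraries held 23940837 to 51912815 gene counts. The second IND replicate of day 10 stood apart, with the smallest total, 19254 genes with a count against 23358 to 29002 elsewhere, 0.691% mitochondrial counts against 1.14 to 4.28% elsewhere, and a mean correlation of 0.921 with the other libraries of its group. Results on day 10 IND are given with and without it where it changed them. In bulk RNA, fewer cells of a type and less RNA per cell cannot be told apart.

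The intermediate mesoderm is the strip of embryonic mesoderm between the somites and the lateral plate from which both the kidney and the gonad derive. OSR1 is one of its earliest transcription factors and is shared with lateral plate mesoderm, while LHX1, PAX2 and PAX8 mark it as the nephric duct forms. In the metanephric mesenchyme OSR1, EYA1, SALL1, PAX2 and SIX2 maintain the nephron progenitor pool, CITED1 marks its least committed cells, and the mesenchyme secretes GDNF, which draws out the ureteric bud through its receptor RET. Several of the same factors also act outside the kidney: LHX1, PAX2 and EYA1 are used in the nervous system and in sensory organs.

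All 9 genes were detected, but at very unequal levels. Levels are compared between genes here only as FPKM, fragments scaled by gene length and by library size. At day 4 SALL1 was the highest, at 36.5 ± 10.9 FPKM (SD, n = 3), followed by LHX1 at 13.5 ± 0.475 FPKM. OSR1 lay at 1.23 ± 0.154 FPKM and EYA1 at 0.611 ± 0.253 FPKM. PAX2 was at 0.447 ± 0.0982 FPKM, and the spread of EYA1 and PAX2 overlapped. CITED1, GDNF, SIX2 and PAX8 closed the order at 0.217 ± 0.0677, 0.187 ± 0.0381, 0.129 ± 0.00323 and 0.0246 ± 0.00542 FPKM, of which CITED1 and GDNF differed by less than their spread. The order shifted with time in both arms: by day 14 LHX1 was at 0.979 ± 0.115 FPKM in CTRL and 0.582 ± 0.0509 FPKM in IND, and in IND OSR1 had come to stand second, at 3.31 ± 0.776 FPKM below SALL1 at 5.31 ± 1.49 FPKM.

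**Figure D1:**
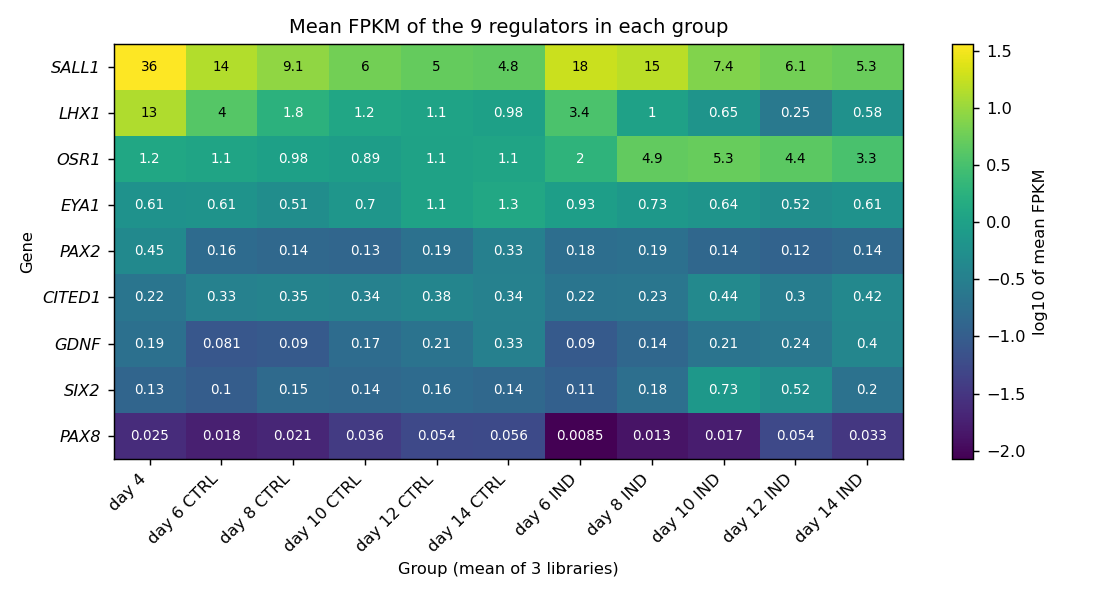
Mean FPKM of the 9 genes (rows, ordered by their day 4 level) in the 11 groups (columns); each cell prints the mean of 3 libraries and its colour gives log10 of that mean. SALL1 had the highest mean in all 11 groups, OSR1 stood second in IND from day 8 on, and PAX8 had the lowest mean in all 11 groups, at 0.00848 to 0.0564 FPKM.

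Counting depth therefore differed between members. SALL1 was covered by 502 to 7840 counts per library, OSR1 by 123 to 1267, EYA1 by 114 to 679 and LHX1 by 32 to 2065. PAX2 had 13 to 108 counts, CITED1 8 to 54, GDNF 3 to 72, SIX2 3 to 79 and PAX8 0 to 42. The means of PAX8 and of CITED1 were under 1 CPM in all 11 groups. PAX8 was also at or under 3 counts in 6 libraries, and CITED1 in 0. Changes of these low genes would have to be large to be detectable at this depth.

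The central comparison was IND against CTRL on each of 5 days. Of 45 possible member tests 43 could be made, because PAX8 did not pass the filter on low counts on days 6 and 8. In all, 8 passed an adjusted p of 0.05, 4 higher and 4 lower in IND, and they fell on 3 genes: OSR1 rose on 4 days, LHX1 fell on 3 and EYA1 fell on 1. By day, 0 of 8 members tested were called on day 6 by edgeR's quasi-likelihood test, where 3.66% of all genes tested were; 2 had an unadjusted p under 0.05, and both passed with DESeq2. On day 8, 2 of 8 were called against 14.2% of all genes. On day 10, 1 of 9 was called against 2.03%. On day 12 it was 2 of 9 against 5.42%, and on day 14 it was 3 of 9 against 8.43%. The day 10 share includes the library that stands apart. On that day edgeR's test on the 6 libraries called 404 genes, against 1787 with DESeq2 (2 members) and 3325 in 1 fit over all 33 libraries (3 members). The median member difference lay between 0.05 and 0.45 log2 units over the 5 days, beside medians of all genes between -0.01 and 0.02.

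**Figure D2:**
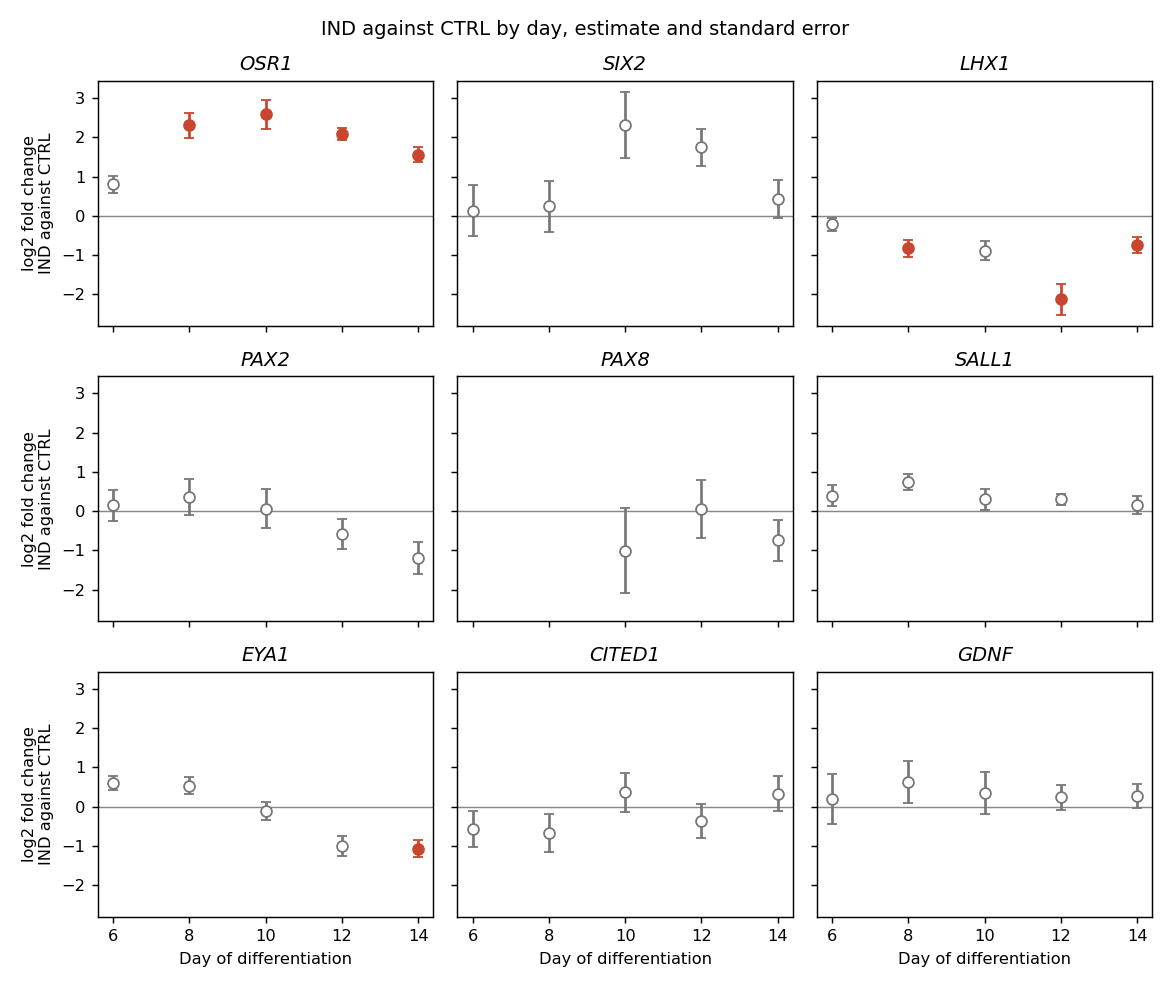
log2 fold change of IND against CTRL (vertical axis) with its standard error (bars) by day (horizontal axis) for each of the 9 genes; filled red points passed an adjusted p of 0.05 and open grey points did not, and PAX8 was not tested on days 6 and 8. OSR1 lay above 0 on all 5 days and LHX1 below 0 on all 5, while EYA1 went from 0.60 on day 6 to -1.07 on day 14.

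OSR1, the early intermediate and lateral plate mesoderm factor, was the member with the largest called increase. At day 4 its 3 libraries read 5.93, 7.27 and 5.98 CPM. In CTRL it stayed near that level, at 4.08 to 7.16 CPM on day 6, 4.28 to 7.09 on day 8, 3.47 to 6.79 on day 10, 5.01 to 6.29 on day 12 and 5.04 to 6.91 on day 14. No CTRL day passed the test against day 4, with adjusted p-values of 0.177 to 0.780 and differences of -0.47 to -0.12 log2 units. On day 10 the difference passed without CTRL replicate 3, at an adjusted p of 0.0289.

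In IND the same gene read 10.3, 8.14 and 12.8 CPM on day 6. It read 33, 28.9 and 16.2 CPM on day 8 and 21.5, 38.7 and 23.3 CPM on day 10. All 3 libraries of each of these groups were above every CTRL library of any day, the highest of which was at 7.16 CPM. On day 12 OSR1 was at 25.1, 25.4 and 20.9 CPM, and on day 14 at 15.7, 22.4 and 14.8 CPM. The IND means thus ran in the order day 10 (27.8 ± 9.44 CPM), day 8 (26.0 ± 8.74), day 12 (23.8 ± 2.49), day 14 (17.6 ± 4.17) and day 6 (10.4 ± 2.35), and the first 3 differed by less than their spread. Day 10 came first only through replicate 2, the library that stands apart, at 38.7 CPM. The other day 10 libraries, at 21.5 and 23.3 CPM, were below the means of days 8 and 12.

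Against CTRL the OSR1 difference was 0.80 ± 0.22 log2 units (SE) on day 6, which missed the threshold at an adjusted p of 0.0657. It passed with the replicate number as a block (0.0264), with DESeq2 (0.0163) and without CTRL replicate 2 (0.0409). OSR1 then rose by 2.30 ± 0.32 log2 units, 4.94-fold, on day 8 (adjusted p = 0.00468), and by 2.58 ± 0.37, 6.00-fold, on day 10 (adjusted p = 0.0243). It was 4.26-fold higher on day 12 (2.09 ± 0.16, adjusted p = 0.000491) and 2.94-fold higher on day 14 (1.56 ± 0.18, adjusted p = 0.000184). The day 10 call is the fragile one of these: it was lost with the replicate block (adjusted p = 0.101) and without any 1 of its libraries other than IND replicate 2, at adjusted p-values of 0.0654 to 0.170, although the difference stayed between 2.38 and 2.91 log2 units.

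Measured from day 4, OSR1 rose in IND on all 5 days, by 0.68 ± 0.21 log2 units on day 6 (adjusted p = 0.0396), 1.98 ± 0.26 on day 8, 2.08 ± 0.29 on day 10, 1.84 ± 0.20 on day 12 and 1.40 ± 0.20 on day 14. The day 6 call was lost without day 4 replicate 1, IND replicate 1 or IND replicate 3 (adjusted p = 0.0962 to 0.158) and with the replicate block (0.0959). It was also lost in 1 fit over all 33 libraries (0.0762), in the FPKM fit (0.0687) and, by its size, with a required log2 change of 1. Between neighbouring days only the step from day 6 to day 8 in IND passed, at 1.29 ± 0.29 log2 units (adjusted p = 0.0352). It did not pass with the replicate block (0.130), nor without any 1 of day 6 IND replicates 1 and 2 and day 8 IND replicates 1 and 2 (0.0600 to 0.111).

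SIX2, the factor that holds nephron progenitors in an undifferentiated state, was near its detection limit in most groups. Its libraries read 0.268 to 0.283 CPM at day 4 and 0.0885 to 0.601 CPM in CTRL over all days. IND overlapped that range on days 6, 8 and 14, at 0.164 to 0.670 CPM. On day 10 the IND libraries read 0.518, 3.32 and 0.867 CPM, and on day 12 they read 1.06, 1.73 and 0.715 CPM. Both groups lay above all CTRL libraries of their own day, and the highest single value was that of the day 10 library that stands apart. The differences from CTRL were 2.32 ± 0.83 log2 units on day 10 (adjusted p = 0.259) and 1.75 ± 0.47 on day 12 (adjusted p = 0.0705), and neither passed. Without the library that stands apart the day 10 difference was 1.12 log2 units. With it, the day 10 difference passed in 1 fit over all 33 libraries (0.0143), and the day 12 difference passed with DESeq2 (0.0171), without the filter on low counts (0.00689) and without IND replicate 1 (0.0497). Against day 4, SIX2 was 4.02-fold higher on day 12 in IND (2.01 ± 0.52, adjusted p = 0.0114), a call that was lost without IND replicate 2 of that day (0.0884).

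LHX1, a LIM homeobox factor needed for the nephric duct and later for the renal vesicle, showed the widest range of the 9, 51.6-fold between its highest and lowest group mean. At day 4 its libraries read 66.8, 61.8 and 65 CPM. In CTRL they read 23.6, 16.5 and 18.3 CPM on day 6, and the means went on through 9.07 ± 1.89 CPM on day 8, 5.95 ± 0.584 on day 10 and 5.33 ± 0.447 on day 12 to 4.77 ± 0.563 on day 14. Every library after day 4, in either arm, was below every day 4 library. The CTRL libraries of days 10, 12 and 14 overlapped from one day to the next.

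LHX1 fell against day 4 in all 10 groups. In CTRL it was down by 70.4% on day 6 and 92.8% on day 14, which is -1.76 ± 0.15 and -3.80 ± 0.14 log2 units. In IND it was down by 74.6% on day 6, and the fall was deepest on day 12, at 98.2% (-5.81 ± 0.38, adjusted p = 2.06e-06, and -6.43 without IND replicate 3 of that day), before 95.8% on day 14. None of these 10 calls was lost in any alternative that was run. By step, it fell from day 6 to day 8 in both arms, by 1.11 log2 units in CTRL (adjusted p = 0.000431) and by 1.73 in IND (adjusted p = 0.000891), and in CTRL again from day 8 to day 10, by 0.62 (adjusted p = 0.0192). The last of these was lost in 1 fit over all 33 libraries (0.300), in the FPKM fit (0.0933) and without day 8 CTRL replicates 1 or 3 or day 10 CTRL replicates 1 or 2 (0.0506 to 0.123).

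IND lay under CTRL for LHX1 from day 8 on, with no overlap. On day 8 the IND libraries read 4.34, 4.30 and 6.6 CPM against 10.7, 7.0 and 9.53 CPM in CTRL, a fall of 0.82 ± 0.22 log2 units (adjusted p = 0.0274). On day 10 they read 3.81, 3.02 and 2.60 CPM against 6.52, 5.36 and 5.97 CPM, and the difference of -0.89 ± 0.24 did not pass (adjusted p = 0.135). Without the day 10 library that stands apart it did, at -0.88 with an adjusted p of 0.00674. The gap was widest on day 12, where IND read 0.836, 0.701 and 2.21 CPM against 5.53, 4.82 and 5.64 CPM in CTRL. LHX1 was 77.1% lower there (-2.13 ± 0.40, adjusted p = 0.0186), and the difference was -2.79 without IND replicate 3, the highest of the 3. On day 14 IND had 3.02, 2.58 and 2.95 CPM against 4.84, 5.30 and 4.18 CPM, a fall of 0.74 ± 0.21 log2 units (adjusted p = 0.0427).

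All 3 of these calls depended on single libraries. On day 8 the call was lost without CTRL replicate 1 or 3 or IND replicate 1 or 2 (adjusted p = 0.0859 to 0.139) and in the FPKM fit (0.0614). On day 12 it was lost without any 1 of the CTRL libraries (0.0574 to 0.0724), and on day 14 without any library but CTRL replicate 3 (0.0901 to 0.133), with the replicate block (0.0551), in 1 fit over all 33 libraries (0.116) and in the FPKM fit (0.0716). The direction was lower in IND in every one of these refits. At day 6 the 2 arms overlapped, with 18.6, 17.8 and 13.7 CPM in IND and a difference of -0.22 ± 0.16 log2 units (adjusted p = 0.634).

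**Figure D3:**
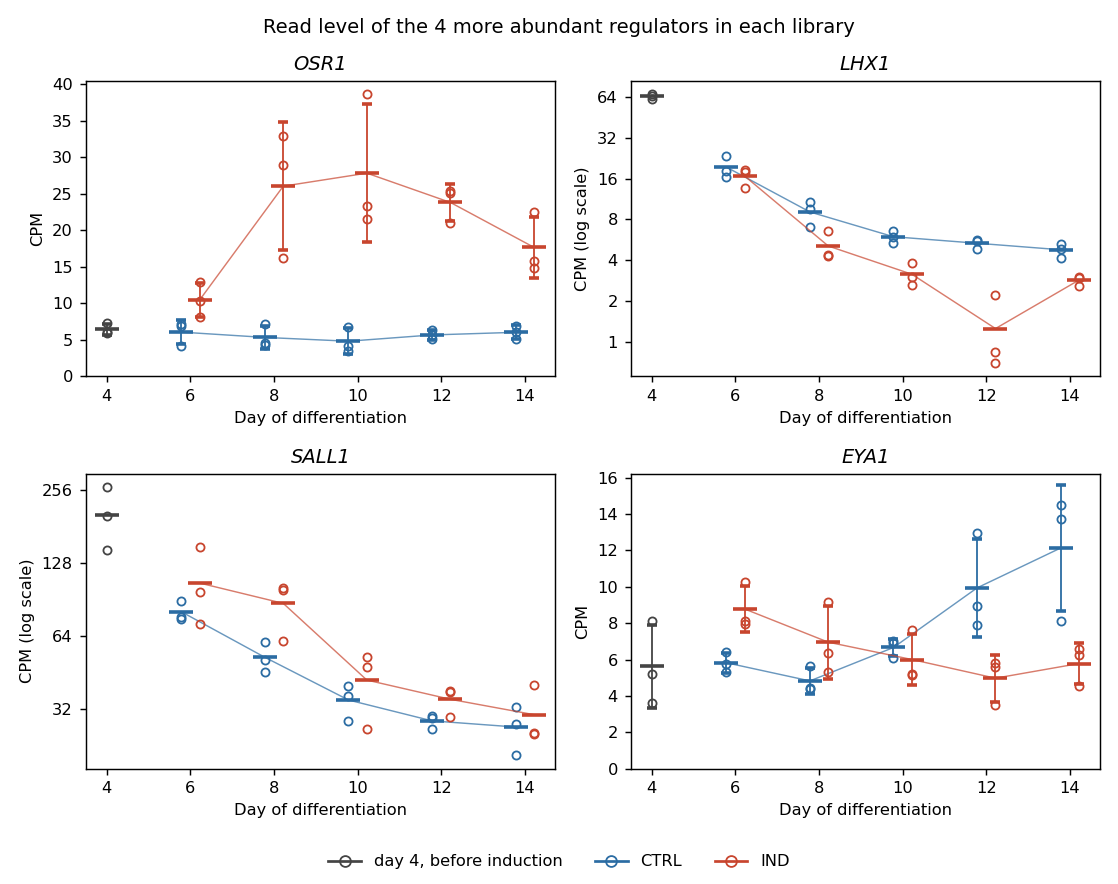
CPM of OSR1, LHX1, SALL1 and EYA1 (vertical axes; log scale for LHX1 and SALL1, linear from 0 for OSR1 and EYA1) by day of differentiation (horizontal axis); circles are single libraries, horizontal dashes are group means of 3, bars on the linear panels are SD, and lines join the means of CTRL (blue) and IND (red) with day 4 in grey. OSR1 lies higher in IND from day 6 with no overlap, LHX1 lies lower in IND from day 8 with no overlap, SALL1 drops in both arms, and the EYA1 arms cross between days 8 and 12.

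PAX2, the paired-box factor of the nephric lineage that acts with EYA1 upstream of GDNF, was highest at day 4, at 2.19, 2.61 and 3.40 CPM. In CTRL it read 0.708 to 1.19 CPM on day 6, 0.508 to 1.21 on day 8, 0.510 to 1.12 on day 10 and 0.879 to 1.57 on day 12. All libraries of these groups were below the day 4 libraries, and PAX2 fell on each of the 4 days, by 1.26 to 1.74 log2 units (adjusted p = 0.00324 to 0.0104). On day 14 CTRL stood at 2.41, 2.42 and 1.31 CPM and no longer passed against day 4 (-0.46 ± 0.33, adjusted p = 0.281). In IND PAX2 was down against day 4 on all 5 days, by 1.25 to 1.85 log2 units. The day 6 call was lost without day 4 replicate 1 or IND replicate 1 or 2 (adjusted p = 0.0594 to 0.0882). Those of days 8 and 10 were lost without any 1 library but IND replicate 2 (0.0628 to 0.0977 and 0.0807 to 0.0929) and with the replicate block (0.0588 and 0.110).

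Between the arms PAX2 did not pass on any day. On day 14 its IND libraries read 0.397, 1.33 and 0.938 CPM, and 1 of them lay within the CTRL range. That difference, -1.19 ± 0.40 log2 units, had an adjusted p of 0.0955 and passed without the filter on low counts (0.0116) and without CTRL replicate 3 (0.0295). Its 95% interval ran from -1.98 to -0.40.

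PAX8, the paralogue of PAX2 that shares its role in specifying the nephric lineage, was too low to follow. Its libraries read 0 to 0.920 CPM, and the single highest, of 42 counts, was the second IND replicate of day 12, whose companions held 4 and 6 counts. CTRL means lay between 0.130 ± 0.114 CPM on day 6 and 0.416 ± 0.0457 CPM on day 14. IND means lay between 0.0633 ± 0.0460 CPM on day 6 and 0.404 ± 0.451 CPM on day 12. None of its 3 IND against CTRL tests passed (adjusted p = 0.455 to 0.978), and the day 10 interval ran from -3.12 to 1.12 log2 units. An antisense gene, PAX8-AS1, overlaps it, with up to 15 counts per library. The libraries did not keep strand, so reads of the 2 cannot be told apart.

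SALL1, a zinc-finger factor of the metanephric mesenchyme that lets it answer the ureteric bud, was the most abundant member throughout. At day 4 its libraries read 199, 263 and 145 CPM. It went down in both arms: the CTRL means were 80.3 ± 7.78 CPM on day 6, 52.1 ± 7.75 on day 8, 34.7 ± 5.80 on day 10, 28.5 ± 1.84 on day 12 and 26.9 ± 6.00 on day 14. In IND they were 105 ± 38.9, 87.0 ± 22.8, 42.0 ± 13.8, 34.9 ± 4.69 and 30.2 ± 8.56 CPM on the same days. The CTRL means of days 12 and 14 differed by less than their spread, as did the last 3 IND means. For day 10 IND this rests on replicate 2, the library that stands apart, at 26.3 CPM. The other day 10 IND libraries, at 47.4 and 52.2 CPM, lay above every IND library of days 12 and 14.

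The fall of SALL1 against day 4 passed in all 10 groups. In CTRL it was by 61.0% on day 6 and 87.1% on day 14 (-1.36 ± 0.19 and -2.96 ± 0.24 log2 units). In IND it was by 48.8% on day 6 and 85.7% on day 14 (-0.97 ± 0.27 and -2.81 ± 0.25 log2 units). The IND groups of days 8 to 14 and all 5 CTRL groups lay wholly below day 4, while 1 day 6 IND library, at 148 CPM, was above the lowest day 4 library. The day 6 IND call was lost without any 1 library but IND replicate 3 (adjusted p = 0.0820 to 0.105) and in the FPKM fit (0.0517). By step, SALL1 fell in CTRL from day 6 to day 8 (-0.64 ± 0.11, adjusted p = 0.000866) and from day 8 to day 10 (-0.60 ± 0.14, adjusted p = 0.0306). Both step calls were lost in 1 fit over all 33 libraries (0.136 and 0.405), and the later one also with the replicate block (0.137), without day 8 CTRL replicate 1 (0.110) and without day 10 CTRL replicate 1 (0.117).

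Between the arms SALL1 differed by 0.17 to 0.75 log2 units, higher in IND on each day, and passed on none. On day 8 the IND libraries, at 101, 99.2 and 60.7 CPM, were all above CTRL, at 50.8, 60.4 and 45.1 CPM. That difference of 0.75 ± 0.21 had an adjusted p of 0.0701, which became 0.00141 with the replicate block, 5.97e-05 with DESeq2, 0.0117 without the filter on low counts and 0.000200 without IND replicate 3. On day 10 the difference was 0.30 ± 0.26 (adjusted p = 0.597) and, without the IND library that stands apart, 0.53 (adjusted p = 0.0152). On days 6 and 12 it passed without IND replicate 1 (0.0248 and 0.0189).

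EYA1, a transcriptional coactivator and phosphatase that partners SIX2 and its relatives, had higher means in IND than in CTRL on days 6 and 8 and lower means from day 10 on. At day 4 it read 5.19, 8.11 and 3.59 CPM. On day 6 IND stood at 8.13, 7.97 and 10.2 CPM against 5.31, 6.42 and 5.74 CPM in CTRL, 0.60 ± 0.18 log2 units higher without passing (adjusted p = 0.0774), and on day 8 the difference was 0.53 ± 0.22 (adjusted p = 0.129). The arms overlapped on day 10, at 5.14 to 7.64 CPM in IND and 6.10 to 7.0 CPM in CTRL. This overlap rests on IND replicate 2, the library that stands apart, at 7.64 CPM. The other day 10 IND libraries, at 5.14 and 5.23 CPM, lay below every CTRL library of that day. On day 12 the CTRL libraries read 13, 7.89 and 8.96 CPM and all lay above IND, at 3.47, 5.83 and 5.62 CPM. The difference was -1.0 ± 0.26 (adjusted p = 0.0624).

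On day 14 EYA1 read 14.5, 13.7 and 8.15 CPM in CTRL and 6.23, 4.52 and 6.59 CPM in IND. It was 52.4% lower in IND, by 1.07 ± 0.23 log2 units (adjusted p = 0.0110), a call that was lost without CTRL replicate 1 (0.0597) and in the FPKM fit (0.0740). Several of the earlier days passed under other settings: day 6 with DESeq2 (0.0328), day 8 without IND replicate 3 (0.0275), and day 12 with DESeq2 (0.00310), without the filter on low counts (0.00135), in 1 fit over all 33 libraries (0.0195) and without IND replicate 1 (0.0473). Against day 4, EYA1 rose in CTRL on day 14, by 1.06 ± 0.33 log2 units (adjusted p = 0.0230), and that call was lost without CTRL replicate 1 or 2 or day 4 replicate 1 (0.0753 to 0.0859). No IND day passed against day 4 for this gene, with differences of -0.24 to 0.61 log2 units, although day 6 did without day 4 replicate 2 (0.0191), and CTRL on day 12 was 0.77 ± 0.32 log2 units above day 4 (0.0756), a difference that also passed without that library (0.00941). The order of the group means ran from 12.1 ± 3.48 CPM in day 14 CTRL and 9.94 ± 2.69 in day 12 CTRL, which overlapped, down to 4.82 ± 0.701 in day 8 CTRL.

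Whether the effect of induction differed between days was tested by the interaction of day and induction, 4 terms fitted over the 30 libraries after day 4. It passed for 2 of the 9 members, where 2.38% of 22442 genes passed. They were EYA1 (adjusted p = 0.00429) and LHX1 (adjusted p = 0.0404), and OSR1 was just outside (0.0508). The EYA1 result was lost when replicate 1 of every group was left out (0.330) or replicate 3 (0.0727). The LHX1 result was lost without replicate 1 (0.653) or 2 (0.377) of every group and in the FPKM fit (0.336). OSR1 passed with RLE factors (0.0496), with DESeq2 (0.00420), without the filter on low counts (8.59e-08) and without replicate 3 of every group (0.0234). For the other 6 members it did not pass.

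CITED1, a transcriptional co-regulator of uncommitted nephron progenitors, passed in no comparison. Its group means lay between 0.375 ± 0.119 CPM at day 4 and 0.763 ± 0.216 CPM in day 10 IND, a 2.04-fold range and the narrowest of the 9. Day 10 IND came first only through replicate 2, the library that stands apart, at 1.01 CPM. The other day 10 IND libraries read 0.683 and 0.599 CPM, below the day 14 IND mean of 0.742 CPM. On day 6 all IND libraries (0.341 to 0.444 CPM) were below all CTRL libraries (0.474 to 0.708 CPM), with a difference of -0.57 ± 0.46 log2 units and an adjusted p of 0.672. Its level is uncertain in any case, since PIN4, a protein-coding gene on the opposite strand with a mean of 16.6 CPM, overlaps it and the libraries did not keep strand.

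GDNF, the ligand by which metanephric mesenchyme attracts the ureteric bud, was lowest on day 6 and highest on day 14 in both arms. Its libraries read 0.777, 0.938 and 0.630 CPM at day 4. On day 14 they read 1.27, 1.68 and 1.23 CPM in CTRL and 2.20, 1.52 and 1.37 CPM in IND, all above day 4. Against day 4 the IND group was up 2.07-fold (1.05 ± 0.37, adjusted p = 0.0368) while the CTRL difference of 0.79 ± 0.37 log2 units did not pass (adjusted p = 0.112). The IND call was lost with the replicate block (0.0652), in 1 fit over all 33 libraries (0.0739) and without IND replicate 1 or 2 or day 4 replicate 1 or 3 (0.0564 to 0.170). IND and CTRL did not pass against each other on any day (differences of 0.19 to 0.63 log2 units). GDNF-AS1, an antisense gene of 0.815 CPM on average, overlaps GDNF and cannot be told apart from it here.

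**Figure D4:**
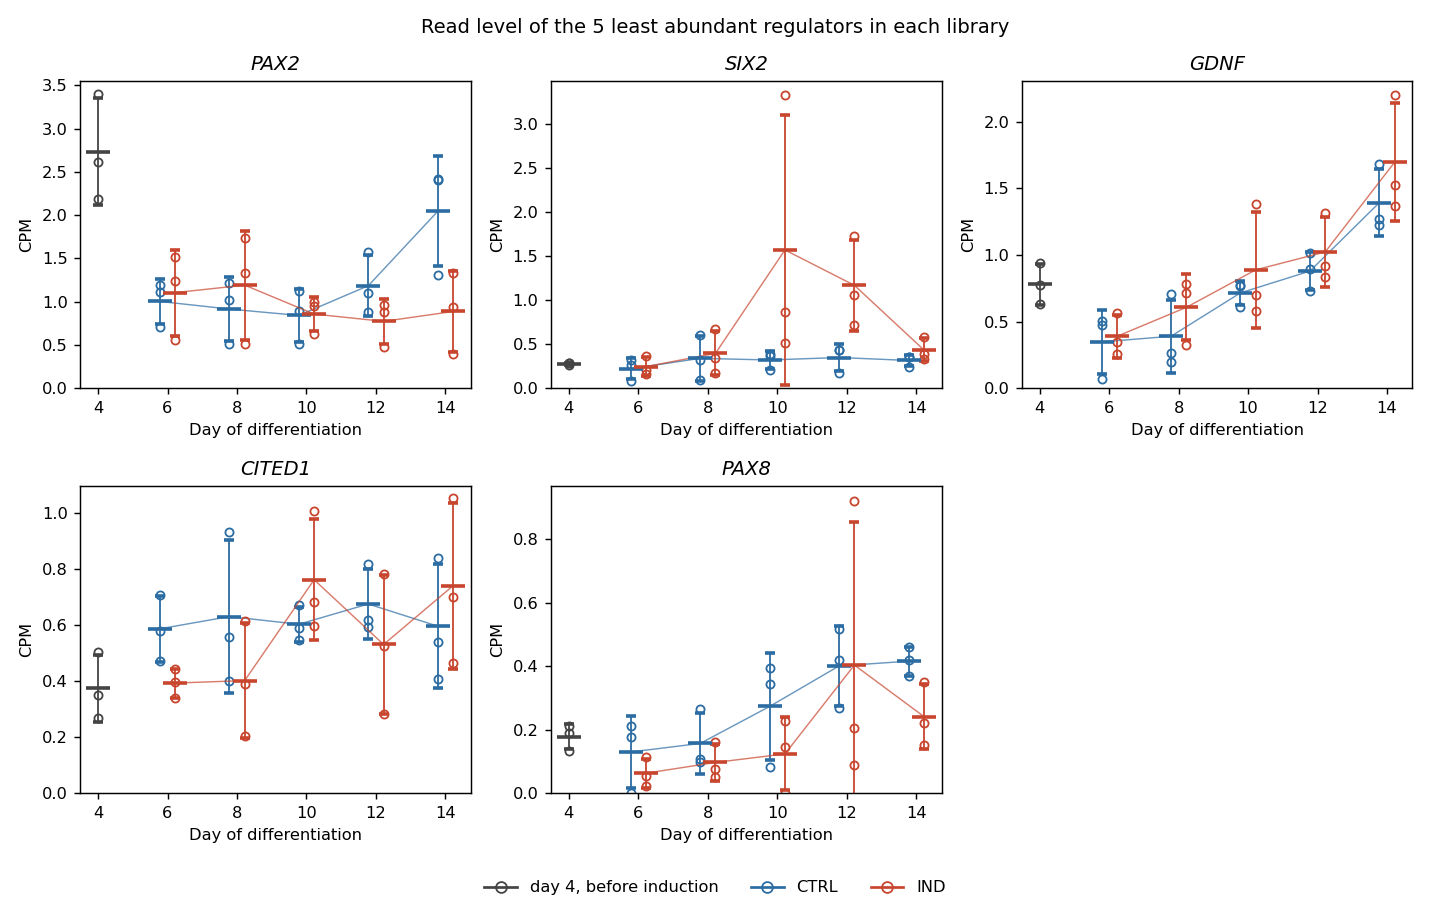
CPM (vertical axes, linear from 0) of PAX2, SIX2, GDNF, CITED1 and PAX8 by day of differentiation (horizontal axis); circles are single libraries, dashes are group means of 3 with SD as bars (a bar that would pass below 0 is clipped), CTRL in blue, IND in red and day 4 in grey. PAX2 has its highest mean at day 4, at 2.73 CPM, is lower from day 6 to day 12 in both arms and stands at 2.05 CPM in CTRL on day 14, SIX2 stands out only in IND on days 10 and 12, and GDNF reaches its highest means on day 14.

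Over the 5 days of CTRL against day 4, 15 of 39 member tests passed, 1 higher and 14 lower. That was 3 members lower on days 6, 8, 10 and 12, of 7, 7, 8 and 9 tested, where 21.6%, 37.1%, 45.1% and 48.1% of all genes were called in either direction. On day 14 it was 3 of 8, 1 higher and 2 lower, against 47.6% of all genes. The share of members called was thus close to or below that of all genes from day 8 on. Lower calls alone made up 10.6%, 18.9%, 22%, 23.8% and 22.9% of all genes on days 6 to 14. In IND against day 4, which shares the day 4 libraries with the CTRL comparison, 22 of 38 passed, 7 higher and 15 lower. By day these were 4 of 7, 4 of 7, 4 of 8, 5 of 8 and 5 of 8, beside 26.5%, 35.8%, 21.6%, 37.1% and 50.6% of all genes.

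Of the 8 steps between neighbouring days within an arm, 6 of 67 member tests passed, all described above. They lay in CTRL from day 6 to day 8 (2 of 8, against 16.6% of all genes), in CTRL from day 8 to day 10 (2 of 9, against 10.6%) and in IND from day 6 to day 8 (2 of 8, against 10.7%). No member passed in the later steps of either arm, where 2.03% and 0.0458% of all genes were called in CTRL from day 10 to 12 and from day 12 to 14, and 0%, 0% and 2.7% in the 3 later steps of IND. In IND these later steps called 0 genes from day 8 to 10 and 0 from day 10 to 12 by edgeR's quasi-likelihood test, with 1029 and 632 genes, 1 member in each, at an unadjusted p under 0.05. Both steps include the day 10 IND library that stands apart. DESeq2 called 211 and 60 genes there and no member. DESeq2 called EYA1 in CTRL from day 10 to 12 (0.0229) and LHX1 in IND from day 12 to 14 (0.0481). In 1 fit over all 33 libraries, 604 genes were called in IND from day 8 to 10 and 243 from day 10 to 12. In that fit SALL1 passed from day 8 to 10 in IND (adjusted p = 0.0254) and LHX1 from day 10 to 12 (0.0132). LHX1 read higher on day 14 than on day 12 in IND by 1.22 log2 units, with an adjusted p of 0.153, which became 0.0470 with the replicate block and 0.0184 without day 12 IND replicate 3.

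The other genes of the pathway were read from 3 lists. The first held 33 further genes of intermediate mesoderm and nephron progenitors, of which 28 or 29 were tested per day. In IND against CTRL, 5 were lower on day 6, 5 on day 8, 6 on day 10, 6 on day 12 and 5 on day 14, while 0, 2, 0, 2 and 3 were higher. Beside these and the counts of the other lists stand the shares of all genes called in either direction, 3.66%, 14.2%, 2.03%, 5.42% and 8.43% on days 6 to 14. WT1, a zinc-finger factor of the kidney mesenchyme and of coelomic epithelium and gonad alike, had among the smallest adjusted p-values: it read 28.2 CPM in IND against 136 CPM in CTRL on day 10 (-2.24 ± 0.19, adjusted p = 0.00673) and 41.6 against 127 CPM on day 12 (-1.60 ± 0.11, adjusted p = 0.000441). NPNT, an extracellular matrix ligand of the nephric duct, was at 81.4 CPM in IND against 176 CPM in CTRL on day 6, and ITGA8, a subunit of its receptor, was at 21.1 CPM in IND against 39.0 CPM in CTRL on day 8. CRYM went the other way on day 12, at 14.7 CPM in IND against 5.82 CPM in CTRL. The list's median difference was -0.34 log2 units on day 10 and 0.04 on day 14.

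The second list held 15 genes of GDNF reception and of the ureteric bud, and 2, 4, 1, 4 and 6 of the 14 or 15 tested were lower in IND on days 6 to 14, with 1 higher, on day 6 (CALB1, at 0.681 against 0.139 CPM). GFRA2, a co-receptor of the GDNF family, was among the lower genes on all 5 days, from -1.51 ± 0.14 log2 units on day 6 to -2.43 ± 0.24 on day 8 and -1.47 ± 0.13 on day 14. ETV5, a transcription factor downstream of RET signalling, was at 7.28 CPM in IND against 14.8 CPM in CTRL on day 14 (-1.02 ± 0.16, adjusted p = 0.00109). RET itself, the receptor of GDNF, and its co-receptor GFRA1 did not pass on any of the 5 days: on day 14 RET was at 5.94 CPM in IND and 6.42 CPM in CTRL, and GFRA1 at 37.9 and 49.4 CPM. These 2 genes were named after their values were seen, as the receptor pair of the member ligand.

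The third list held 15 genes of later nephron segments and patterning, of which 11 to 13 were tested. Lower in IND were 3, 2, 2, 2 and 3 on days 6 to 14, and higher were 0, 2, 0, 1 and 0. LRP2, the endocytic receptor megalin of the proximal tubule, fell by 1.76 ± 0.13 log2 units on day 10 (44.7 against 155 CPM, adjusted p = 0.00435), and PODXL, a sialomucin of podocytes that embryonic stem cells also carry, fell by 1.30 ± 0.16 on the same day (725 against 1824 CPM, adjusted p = 0.0155). DLL1, a Notch ligand, rose on day 12 by 0.77 ± 0.12 (50.2 against 29.6 CPM, adjusted p = 0.00726). The plot of calls among related genes gives the counts of the 3 lists.

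**Figure D5:**
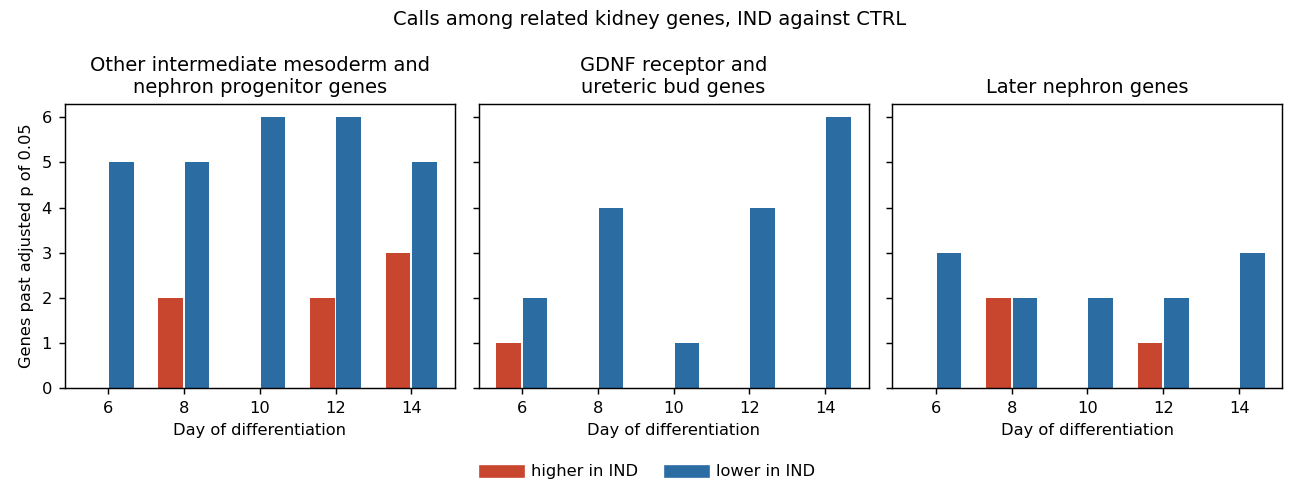
Number of genes past an adjusted p of 0.05 in IND against CTRL (vertical axis) by day (horizontal axis) in each of 3 lists of related genes; red bars count genes higher in IND and blue bars genes lower in IND. In the first list, of 33 genes, 5 to 6 were lower on each day, and in the second, of 15 genes, 6 were lower on day 14.

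Over time, in CTRL against day 4, 8 of 14 genes tested of the second list were higher and 3 lower on day 14. There GFRA1 was up by 6.22 ± 0.45 log2 units, from 0.632 ± 0.347 CPM at day 4. TFAP2B was up by 9.96 ± 0.41, a size that rests on a day 4 level of only 0.0576 ± 0.0741 CPM. In the first list 10 of 28 were higher and 9 lower on day 14. Of all genes, 47.6% were called there in either direction and 22.9% were lower. WT1 led the higher ones, at 0.0112 ± 0.0193 CPM on day 4 and 145 ± 28.8 CPM on day 14, and SALL4, a paralogue of SALL1 that marks pluripotent and progenitor cells, was lower by 2.58 ± 0.17 log2 units.

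Markers of other cell types were also called in IND against CTRL, where the same shares of all genes apply. Among 12 markers of neural progenitors and neurons, none at 0 in any group, 0, 6, 4, 6 and 7 were lower in IND on days 6 to 14 and 1 was higher, on day 8. Their summed level was 152 to 198 CPM in CTRL and 116 to 161 CPM in IND on day 8, and 488 to 855 against 379 to 429 CPM on day 14. In CTRL against day 4, 12 of the 12 were higher on day 12, where 48.1% of all genes were called. EYA1, LHX1 and PAX2 are also expressed in neural cells, and the part of the neural markers in their differences was not tested. The 7 markers of coelomic epithelium and gonad had 2, 4, 3, 3 and 4 lower and 0 higher in IND, with summed levels of 605 to 687 CPM in IND against 833 to 1117 CPM in CTRL on day 14. This sum does not follow the single markers over time. Its mean was 1179 CPM at day 4, where 3 of the 7 were at or under 3 counts, and 955 CPM in day 14 CTRL. Between these groups 4 of 6 markers tested were higher and 1 lower in CTRL, where 47.6% of all genes were called. The 5 lateral plate markers, of the tissue in which OSR1 is also expressed, had 3, 2, 1, 2 and 1 lower and 0 higher. Their sum was 258 to 413 CPM in IND and 516 to 536 CPM in CTRL on day 8. On day 14 it overlapped, at 331 to 379 CPM in IND and 316 to 384 CPM in CTRL. The part of the lateral plate markers in the OSR1 difference was not tested.

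Podocyte and tubule markers, 7 in all, summed to 186 to 221 CPM in IND and 249 to 423 CPM in CTRL on day 14, with UMOD at 0 in both. Counting UMOD, 3 of the 7 in IND and 2 in CTRL were at or under 3 counts in every library of that day. LRP2 made up much of the sum: its mean was 104 of 202 CPM in day 14 IND and 190 of 205 CPM at day 4. The 5 pluripotency markers summed to 1878 to 2061 CPM at day 4, to 128 to 172 CPM in day 14 CTRL and to 113 to 130 CPM in day 14 IND. Its mean was higher in IND than in CTRL on day 8 (707 against 575 CPM) and day 12 (296 against 223 CPM), though the libraries overlapped. In day 10 IND the sum spanned 345 to 1860 CPM over the 3 libraries, above CTRL at 276 to 341 CPM. The day 10 IND mean of 873 CPM includes the library that stands apart. On day 6 the arms overlapped, at 850 to 1068 CPM in IND and 934 to 1024 CPM in CTRL. SALL1 and LHX1 went down alongside these markers in both arms, and the part of remaining pluripotent cells in that course was not tested. In IND against CTRL the 5 renal stroma markers had 2, 2, 1, 1 and 1 lower on days 6 to 14 and 1 higher, on day 12. Their sum was 194 to 246 CPM in IND against 332 to 349 CPM in CTRL on day 8, lay lower without overlap on days 6 to 12 and overlapped on day 14, at 315 to 345 against 332 to 414 CPM. Of the 5 endothelial markers 3 were higher on day 8, where their sum was 156 to 169 CPM in IND and 125 to 136 CPM in CTRL. On day 6 this sum lay the other way, at 102 to 115 CPM in IND and 122 to 145 CPM in CTRL, and on days 10, 12 and 14 the arms overlapped. The 6 paraxial mesoderm markers had at most 1 called in each direction on any day, with sums of 28.0 to 31.9 CPM in IND and 44.6 to 61.1 CPM in CTRL on day 12. The part of these markers in the member differences was not tested.

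As a description of shared course, the group means of log2 CPM were correlated over the 11 groups, among 12981 protein-coding genes of sufficient level. These points share libraries and their depth, and the coefficients carry no test. OSR1 was most like RCAN3 (Pearson's r = 0.979), SPTSSB (0.975) and BMPR1B (0.972). LHX1 was most like DNMT3B (0.987), ERI1 (0.987) and TNPO3 (0.984), and SALL1 like ATF7IP2, USP44 and JCAD (0.986 to 0.987). DNMT3B, the de novo DNA methyltransferase, and USP44 are abundant in pluripotent cells. EYA1 was most like TMEM178B (0.953), ATP6V0A1 (0.914) and CACNA1A (0.879), the last a neuronal calcium channel subunit. GDNF was most like SYT2 (0.981) and APP, and PAX2 like KIF5C (0.949), C3 and ACSL4.

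For the lowest members these coefficients rest on few counts: SIX2 was most like UBOX5 (0.976), TMED9 and ACBD6, PAX8 like ZYX (0.961), CTIF and PHYHIP, and CITED1 like EPM2A (0.919), COL1A2 and COL1A1. Among the 9 themselves, SALL1 and LHX1 were the most alike (0.814), followed by OSR1 and SIX2 (0.742) and by PAX8 and GDNF (0.702). The least alike were SALL1 and CITED1 (-0.783) and SIX2 and LHX1 (-0.724). OSR1 and LHX1, the 2 members with calls on most days between the arms, had a coefficient of -0.568.

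In the GRCh38 build the members lie on 7 chromosomes, by the coordinates that the gene table gives. OSR1 spans chromosome 2 from 19351485 to 19358653 on the minus strand (ENSG00000143867), SIX2 chromosome 2 from 45005161 to 45009430 on the minus strand, and PAX8 chromosome 2 from 113215997 to 113278950 on the minus strand. LHX1 spans chromosome 17 from 36936785 to 36944612 on the plus strand (ENSG00000273706), and SALL1 chromosome 16 from 51135975 to 51151367 on the minus strand (ENSG00000103449). PAX2 spans chromosome 10 from 100735603 to 100829941 on the plus strand, GDNF chromosome 5 from 37812677 to 37839686 on the minus strand and CITED1 chromosome X from 72301638 to 72307187 on the minus strand, while EYA1 lies on chromosome 8. OSR1, SIX2 and PAX2 overlap no other annotated gene. SALL1, EYA1 and LHX1 overlap antisense or other non-coding genes on the opposite strand, which had at most 55, 13 and 29 counts in any library.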

How the data were processed

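RNA was extracted from 33 wells and sequenced by the study as paired-end reads of poly-A selected, non-directional libraries. The authors trimmed the reads with fastp 0.23.2, aligned them to GRCh38 with HISAT2 2.0.5 and counted them per gene with featureCounts 1.5.0-p3, per the submitters' processing notes. The deposited table holds raw read counts and, beside them, FPKM values that the authors computed. Columns were matched to samples by their titles.

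The counts as deposited were tested with edgeR 4.0.16 (quasi-likelihood, robust, TMM factors, filterByExpr, R 4.3.3) on the 6 libraries of each comparison, with Benjamini-Hochberg adjustment over all genes kept and a threshold of 0.05. Standard errors were derived from the estimate and its F statistic, and 95% intervals from these. CPM used TMM factors over all 33 libraries. FPKM served for levels between genes and, as log2(FPKM + 1), for an alternative limma 3.58.1 fit. DESeq2 1.42.0, RLE factors, no filter, a mean of at least 50 counts, 1 fit over all libraries, a required log2 change of 1 or more in size, a replicate block and leaving out each library were the other alternatives. Leaving out the day 10 IND replicate 2 alone from the comparisons of 2 groups was added after seeing the data. Scripts were tested on simulated data.

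Libraries of a group differed beyond sampling noise: chi-square per gene was 7.82 to 245.8 over 33 pairs. Same-numbered libraries did not pair: the correlations of their deviations ran from -0.250 to 0.141 and no comparison had all pairs over 0.1. The members and lists were chosen with earlier results of these data known. Genes were named by rule: the 9 members, up to 3 genes per list and comparison by adjusted p, the 3 most alike protein-coding genes (average log2 CPM of at least 1), and overlapping genes; 1 gene that the rule names is not reported here.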

Additional observations from a re-analysis of the deposited data

Results flagged for a closer look

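The effect of induction differed between days for 2 members by the interaction of day and induction (edgeR's quasi-likelihood test, 30 libraries). EYA1 passed with an adjusted p of 0.00429: IND was 0.60 log2 units above CTRL on day 6 and 1.00 and 1.07 log2 units below it on days 12 and 14. LHX1 passed with an adjusted p of 0.0404: IND differed from CTRL by -0.22 log2 units on day 6, -2.13 on day 12 and -0.74 on day 14. Both were lost without replicate 1 of every group (0.330 and 0.653).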

How the results depend on the processing

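Of 53 member calls in the comparisons of groups and the interaction, 34 held in every alternative run, and 91 of 732 refits of these calls lost one, while 0 reversed a direction. Conversely, 25 uncalled values passed in some alternative, 52 times in all. The 8 calls of IND against CTRL became 14 with DESeq2, 13 without the filter on low counts and 5 in the FPKM fit, and ran from 3 (without CTRL replicate 1 of every day) to 9 when a replicate was left out of every day. Without day 10 IND replicate 2 alone they were 10. Of all genes, DESeq2 called 1001, 3308, 1787, 1956 and 1975 on days 6 to 14, and the FPKM fit 359, 2216, 390, 741 and 1160. Beside these, edgeR's quasi-likelihood test called 700, 2752, 404, 1080 and 1606. The 15 calls of CTRL against day 4 ran from 14 to 16 without 1 replicate, and the 22 of IND against day 4 from 16 to 20. The 6 step calls became 10 without the filter and 3 with a required log2 change of 1 or more in size, and ran from 3 (without replicate 1 of the later day) to 6. The 2 interaction calls became 1 in the FPKM fit and ran from 0 (without replicate 1) to 2. The cause was not tested. Depth limits SIX2, GDNF, CITED1 and PAX8 most, with at most 79 counts in any library, then PAX2 (13 to 108 counts) and LHX1 in IND (32 to 65 counts on day 12).

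The replicate numbers did not pair the samples. With the replicate block there were 8 calls of IND against CTRL, 15 of CTRL against day 4, 18 of IND against day 4, 5 steps and 2 interactions.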
